A study of Mus musculus with 6 samples.

Results

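Ppbp Ccl24 macrophages were examined among CD45+ cells of B16-F10 tumors, a transplanted mouse melanoma. A barcode was counted as one when it had 600 to 4000 genes, at most 10% mitochondrial UMIs, at least 2 UMIs of the macrophage genes C1qa, C1qb, C1qc, Adgre1 and Csf1r together, at least 2 UMIs of Ppbp and Ccl24 together, at most 2 UMIs of Lyve1, Folr2 and Fcna together, and no UMI of Cd3d, Cd3e, Cd3g, Cd79a, Cd79b or Ms4a1. A UMI is a molecular tag that counts an RNA molecule once. The members were thus chosen by the measured UMIs of these 16 genes, which are described below and for which no test is reported. The rule found 611 cells among 52899 deposited barcodes, of which 30067 passed the limits on genes and mitochondrial UMIs and 9774 of these met the macrophage and lymphocyte limits (gated macrophages).

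Tumors given αPD-1 alone gave 3 samples and tumors given αPD-1 with corin gave another 3, each a droplet-based single-cell library. Host mice were female C57BL/6 animals 6 to 10 weeks old with no engineered allele named in the labels, and both groups carried the same tumor line and received 150 μg of the antibody 3 times per week from day 7. Daily corin, an inhibitor of the CoREST complex, was added in the combination at 200 μg from day 6, and mice without corin are described as given DMSO vehicle. The labels put 10 mice in each arm and do not say which mice, or how many, gave a sample, so p-values measure the spread between these samples. Cells were frozen as suspensions, thawed, depleted of dead cells and enriched on CD45 beads, so shares are shares of cells that came through these steps.

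Ppbp encodes pro-platelet basic protein, a CXC chemokine precursor that attracts neutrophils, and Pf4 encodes platelet factor 4, a related CXC chemokine. Both are known best from platelet granules and are also made by some macrophages. Ccl24 (eotaxin-2) attracts eosinophils through the receptor Ccr3, and Ccl7 attracts monocytes. Mrc1 (CD206) is a mannose receptor commonly used to mark alternatively activated macrophages, which in tumors are linked to wound repair and restraint of T cells. Ppbp (chr5:90916371-90917930, plus strand) and Pf4 (chr5:90918479-90922110, plus strand) are neighbors, 548 bases apart, while Ccl24 lies farther along the same chromosome (chr5:135598668-135601905, minus strand; GRCm39, GENCODE vM39).

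The members were few and unevenly spread. They numbered 13, 11 and 13 cells in αPD-1 replicates 1 to 3, and 409, 161 and 4 cells in αPD-1 + corin replicates 1 to 3. Thus 570 of the 611 cells came from 2 samples, and the other 4 samples held 41. αPD-1 + corin replicate 3 stood apart from the rest of its group, with fewer members than any αPD-1 sample and with 21.8% of its kept barcodes in a T cell gate (at least 2 Cd3 UMIs and no UMI of the macrophage or B cell genes), against 2.59% and 10.2% in replicates 1 and 2. Results below that change without it are named. The members' summed UMIs were 57640, 97355 and 64572 with αPD-1 alone and 1386840, 867563 and 16944 with αPD-1 + corin, and their median UMIs per cell were 3759, 8650 and 4357 against 2858, 4721 and 4271.5. Pairs of libraries shared between 10 and 32 barcodes, and no member's barcode occurred as a member in another library.

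Of the gated macrophages, members made up 1.67%, 1.28% and 1.83% with αPD-1 alone and 8.81%, 10.8% and 0.309% with αPD-1 + corin. Counting error alone gave 95% Wilson intervals from 8.03% to 9.66% and from 9.35% to 12.5% in αPD-1 + corin replicates 1 and 2, from 0.120% to 0.792% in replicate 3, and from 0.715% to 3.11% over the αPD-1 samples. Both high samples lay above every αPD-1 sample and the third lay below them, so the groups overlapped. The means were 1.59% ± 0.284 (SD, n = 3) and 6.65% ± 5.58 (SD, n = 3; two-sided exact permutation test, p = 0.4). Of all kept barcodes, members made up 0.292% ± 0.00135 and 2.95% ± 2.54 (SD, n = 3 each; exact permutation p = 0.4, and 0.4 after Benjamini-Hochberg adjustment over the 2 denominators). The smallest p that 3 samples against 3 can give is 0.1. Without αPD-1 + corin replicate 3 the groups did not overlap in either share, with means of 9.82% ± 1.43 and 4.39% ± 0.753 (SD, n = 2), but 3 samples against 2 gave an exact permutation p of 0.2. With each cell thinned to 1500 UMIs before the rule was applied, which left out 792, 402 and 814 shallower kept barcodes with αPD-1 alone and 917, 312 and 535 with αPD-1 + corin, members made up 0.724%, 0.262% and 1.19% of gated macrophages with αPD-1 alone and 9.76%, 14.2% and 0.267% with αPD-1 + corin. Thinning also lowered the UMIs of Lyve1, Folr2 and Fcna and of the lymphocyte genes, so cells above those limits could enter. αPD-1 + corin replicate 2 had 188 members after thinning and 161 before, so the thinned members were not the same set of cells. At this matched depth replicate 3, with 3 members, was no longer below αPD-1 replicate 2, with 2, and the means were 0.725% ± 0.464 and 8.07% ± 7.11 (SD, n = 3 each; exact permutation test, p = 0.3). In an edgeR fit on the numbers of cells the log2 ratio was 2.06 ± 1.07 (SE) against gated macrophages (adjusted p = 0.187) and 3.33 ± 1.32 against all kept barcodes (adjusted p = 0.0942).

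**Figure D1:**
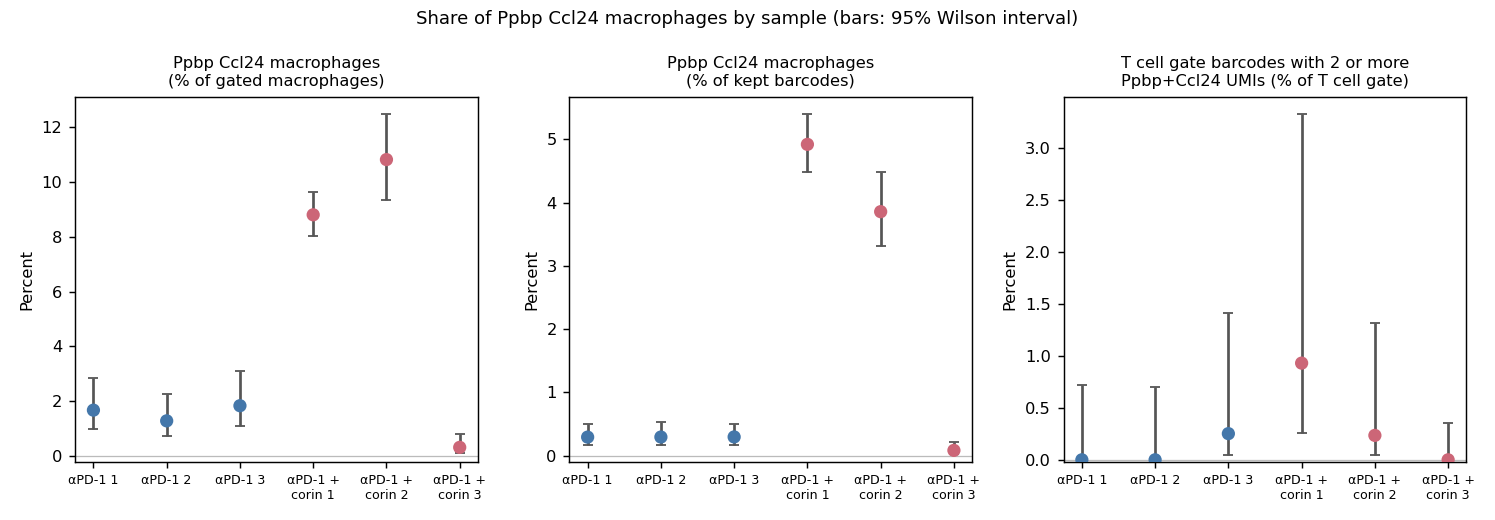
Percent of barcodes in each sample, for members among gated macrophages (left) and among kept barcodes (middle) and for T cell gate barcodes with at least 2 UMIs of Ppbp and Ccl24 (right). Points are samples (blue αPD-1, red αPD-1 + corin) and bars are 95% Wilson intervals for counting error. αPD-1 + corin replicates 1 and 2, at 8.81% and 10.8% of gated macrophages, lie above the αPD-1 samples, and replicate 3, at 0.309%, lies below them, an order that did not hold against αPD-1 replicate 2 after thinning to 1500 UMIs (0.267% and 0.262%).

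Free RNA can put UMIs of a gene into droplets of other cells. In the T cell gate, 0 of 530, 0 of 547 and 1 of 397 barcodes with αPD-1 alone, and 2 of 215, 1 of 426 and 0 of 1073 with corin added, had at least 2 UMIs of Ppbp and Ccl24, with means of 0.0840% and 0.388%. The gate itself left out every barcode with a UMI of the macrophage genes, and so favored droplets with little free macrophage RNA. These shares can therefore be too low as a background for members. The counts of 0 allow shares of up to 0.566%, 0.548% and 0.280%. The median depth of that gate was between 2184 and 3907 UMIs per cell, against 2858 to 8650 in members. In αPD-1 + corin replicate 3 the member share of 0.309% was near the limit that its T cell count allows. The median of Ppbp and Ccl24 UMIs in its 4 members, by which the rule chose them, was 16.5, and the part of free RNA in these members was not tested.

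Near the threshold, 119 members had exactly 2 UMIs of Ppbp and Ccl24, and 324 gated macrophages with 1 UMI lay just outside. The median sum was 6 and the highest 179. At the other limit, 170 members had 2 UMIs of Lyve1, Folr2 and Fcna, and 130 cells with at least 2 UMIs of Ppbp and Ccl24 lay just outside with 3. The limit on these 3 genes, which mark tissue-resident macrophages, removed more cells than it kept. Among 2552 gated macrophages above it (called resident-like macrophages here), 802 had at least 2 UMIs of Ppbp and Ccl24, namely 4, 16 and 6 with αPD-1 alone and 598, 173 and 5 with αPD-1 + corin. Of 15314 Ppbp UMIs in kept barcodes, 30.4% were in members and 49.1% in resident-like macrophages. Of 11867 Ccl24 UMIs, 30.4% and 49.2% were in these classes. These pooled shares follow αPD-1 + corin replicates 1 and 2, which held most of the UMIs. In the αPD-1 samples members held 25.0%, 36.1% and 38.3% of Ppbp UMIs and resident-like macrophages 5.00%, 11.1% and 8.33%, while 53 of 80, 15 of 36 and 30 of 60 Ppbp UMIs lay outside gated macrophages, more than in members. For Ccl24 members held 40.7%, 40.7% and 30.2%, resident-like macrophages 21.3%, 38.7% and 12.6%, and 30.7%, 15.3% and 53.8% lay outside gated macrophages. In αPD-1 + corin replicate 3 members held 84.2% of 19 Ppbp UMIs and 38.4% of 99 Ccl24 UMIs, against 10.5% and 26.3% in resident-like macrophages. With the limit lifted, members made up 2.66% ± 0.477 and 14.9% ± 12.3 of gated macrophages (SD, n = 3 each; exact permutation test, p = 0.4). Barcodes above 4000 genes that met the rest of the rule numbered 0, 2 and 0 with αPD-1 alone and 18, 22 and 0 with αPD-1 + corin.

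The label names genes that were often in different cells. Ppbp without Ccl24 was found in 3 of 13, 3 of 11 and 2 of 13 αPD-1 members, and Ccl24 without Ppbp in 9, 8 and 10 of them, so that 2 of the 37 had both. In αPD-1 + corin replicates 1 and 2, 80 and 25 members had Ppbp alone, 204 and 55 had Ccl24 alone, and 125 of 409 (30.6%) and 81 of 161 (50.3%) had both. In replicate 3, 1 member had Ppbp alone, 3 had Ccl24 alone and 0 of 4 had both. Since the rule used these UMIs, the split is given as a description.

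Levels are given as CPM, a gene's UMIs scaled to the same total of UMIs in every class and sample, which are comparable between samples for a gene and are not corrected for gene length. Fewer cells of a kind and less RNA per cell cannot be told apart in such sums. Ppbp in members was at 347, 134 and 356 CPM with αPD-1 alone and 1604, 2723 and 944 CPM with αPD-1 + corin, higher in each αPD-1 + corin sample than in any αPD-1 sample. All 16 Ppbp UMIs of αPD-1 + corin replicate 3 were in 1 of its 4 members, and 14 of 23 in αPD-1 replicate 3 were in 1 member. Ccl24 was at 1058, 1037 and 929 CPM and at 1811, 961 and 2243 CPM, with overlap through replicate 2. The other macrophages were the 6287 gated cells with no UMI of either gene and at most 2 UMIs of Lyve1, Folr2 and Fcna. This class leaves out the resident-like macrophages, and both genes are at 0 in it by the rule. In resident-like macrophages, where the rule set no limit on them, Ppbp was at 5.58, 4.98 and 14.1 CPM with αPD-1 alone and 391, 1440 and 2.65 CPM with αPD-1 + corin, and Ccl24 was at 44.7, 120 and 70.3 CPM and 425, 649 and 34.5 CPM. Among these cells, αPD-1 + corin replicates 1 and 2 were above every αPD-1 sample and replicate 3 was below them.

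Of the other marker genes, Pf4 in members was at 3869, 1428 and 2524 CPM with αPD-1 alone and 3982, 2727 and 1534 CPM with αPD-1 + corin, and the groups overlapped. Mrc1 was at 781, 472 and 449 CPM and at 2155, 1633 and 1180 CPM, without overlap. Ccl7 was at 1076, 82.2 and 1394 CPM and at 2894, 2026 and 1475 CPM, without overlap. In members of αPD-1 + corin replicate 3, 18 of 20 Mrc1 UMIs were in 1 cell, as were 19 of 25 Ccl7 UMIs, so its levels rest on few cells. The αPD-1 levels did too. In αPD-1 replicates 1 to 3, 1 member each held 48 of 62, 7 of 8 and 32 of 90 Ccl7 UMIs. For Pf4 these counts were 117 of 223, 76 of 139 and 88 of 163. In the resident-like macrophages Mrc1 was at 1293, 1327 and 1029 CPM and at 1984, 2425 and 1181 CPM, and Ccl7 was higher in every αPD-1 + corin sample in all 3 classes.

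**Figure D2:**
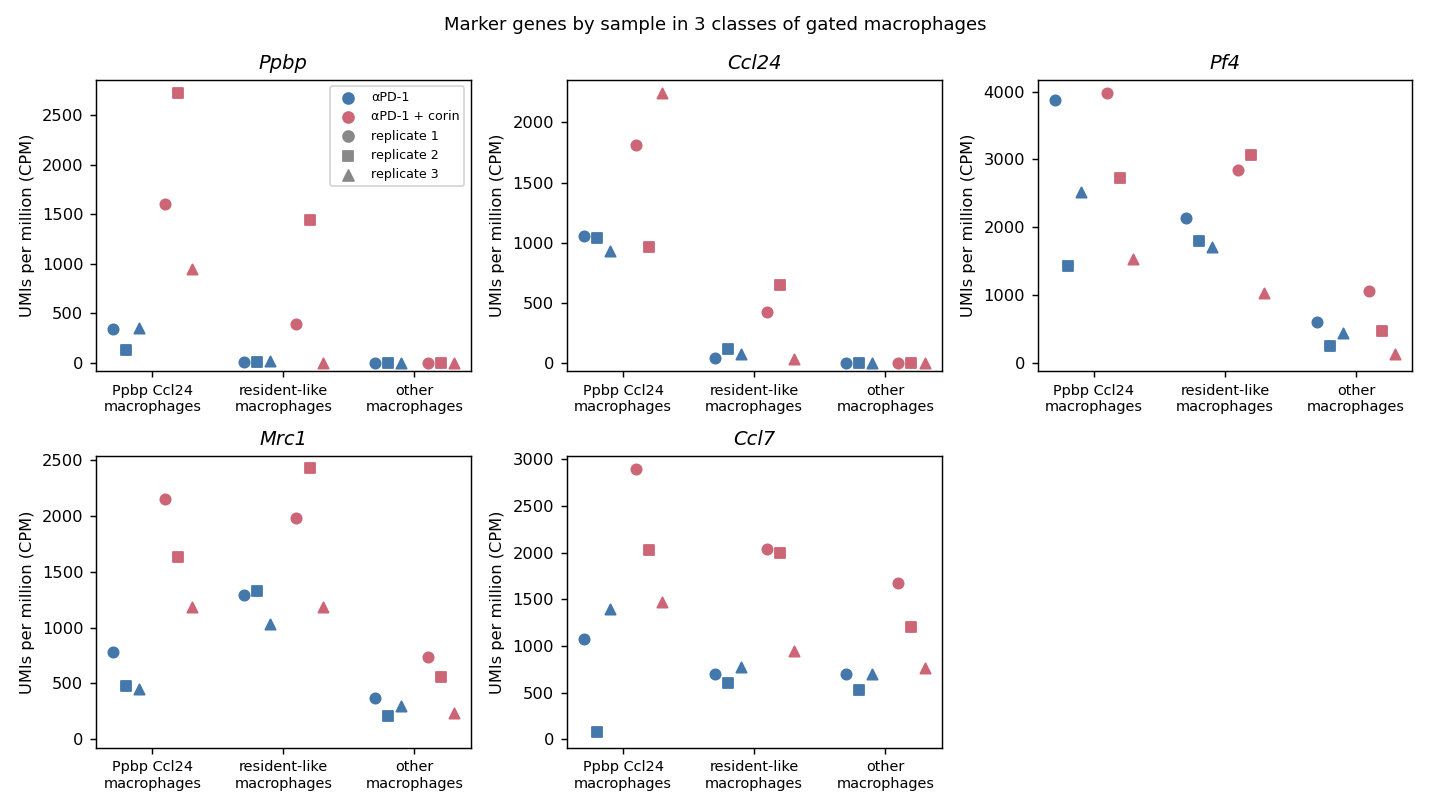
Level by class and sample (CPM, linear axes from 0) for Ppbp, Ccl24, Pf4, Mrc1 and Ccl7 in members, resident-like macrophages and other macrophages. Each point is a sample, with color for treatment and shape for replicate. Ppbp and Ccl24 are at 0 in other macrophages by the rule, and resident-like macrophages of αPD-1 + corin replicates 1 and 2 carry both genes.

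The members were checked against marker lists of 10 cell types. All 20 macrophage markers beyond those in the rule (such as Lyz2, Cd68 and Apoe) were detected in them, with a summed level of 13394, 15315 and 18057 CPM with αPD-1 alone and 20625, 18682 and 15640 CPM with αPD-1 + corin, led by Lyz2. Other macrophages were between 12629 and 17278 CPM and the T cell gate between 452 and 2392 CPM. Monocyte markers, led by Plac8, summed to 2117, 1674 and 1564 CPM and to 2810, 3110 and 4839 CPM, higher in each αPD-1 + corin sample. In other macrophages the order was the reverse, with 2853, 2600 and 3520 CPM and 2483, 2137 and 2136 CPM. Ppbp and Pf4 aside, the 12 platelet and megakaryocyte markers summed to 28 UMIs over all 611 members, and 5 of them, among them Gp9, Gp1ba and Gp5, were at 0. The most abundant of the 12 was Itgb3, and the list was at 0 in 4 of the 6 samples and at 10.1 and 16.1 CPM in αPD-1 + corin replicates 1 and 2. Of the 12 eosinophil, basophil and mast cell markers, 9 were at 0 in all members and the sum was at most 17.3 CPM in any sample, led by Ccr3. T and NK cell markers, of which the rule sets Cd3d, Cd3e and Cd3g to 0, were at most 45.0 CPM, led by Nkg7. B and plasma cell markers were between 103 and 262 CPM, led by Xbp1. Dendritic markers were between 421 and 639 CPM, led by Bst2, and melanoma markers between 356 and 906 CPM, led by Mitf. Fibroblast and endothelial markers, led by Col1a1 and with 1 of 11 at 0, summed to 0, 20.5 and 31.0 CPM with αPD-1 alone and to 363, 643 and 0 CPM with αPD-1 + corin in members, and to 39.1, 160 and 45.9 CPM and 2068, 335 and 228 CPM in other macrophages. They were thus high in αPD-1 + corin replicates 1 and 2, and their part in the matrix gene results below was not tested.

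Neutrophil markers were higher in each αPD-1 + corin sample than in any αPD-1 sample. In members they summed to 104, 41.1 and 836 CPM with αPD-1 alone and to 2325, 5995 and 1239 CPM with αPD-1 + corin, led by S100a9, with 1 of the 14 at 0. The same list in other macrophages was at 321, 130 and 152 CPM and at 3031, 7121 and 372 CPM, and in the T cell gate at 237, 86.5 and 54.6 CPM and at 4185, 7537 and 514 CPM. At least 2 UMIs of S100a8 and S100a9 were found in 1 of the 37 αPD-1 members and in 61 of 409, 52 of 161 and 1 of 4 αPD-1 + corin members, and in 0.739% ± 0.0882 and 21.3% ± 18.1 of all kept barcodes (SD, n = 3 each). The calls of the treatment fit below were also counted without these members, and the part of neutrophil RNA in the other results was not tested. Scrublet doublet scores, cut at a fixed rate of barcodes, would take 34 members away, all from αPD-1 + corin samples.

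Members were next set beside the other macrophages of the same sample, as a description, since the rule separated these cells by their own UMIs. Over 1732 genes with at least 100 CPM in the higher class, 76 (4.39%) were higher in members in all 6 samples and 113 (6.52%) were lower in all 6. Ratios are log2 of CPM + 10 in members over other macrophages, as mean ± SD over 6 samples. Chemokines and matrix genes led the higher genes. Pf4 had a log2 ratio of 2.57 ± 0.48. In resident-like macrophages, outside this comparison, Pf4 was at 2133, 1800 and 1707 CPM with αPD-1 alone. With αPD-1 + corin it was at 2846, 3070 and 1024 CPM there. Fn1 (fibronectin) was at 1336, 1530 and 2137 CPM in αPD-1 members and 2411, 2324 and 3836 CPM in αPD-1 + corin members, with a log2 ratio of 2.42 ± 1.12. Thbs1 (thrombospondin 1, an adhesive glycoprotein) had a log2 ratio of 1.99 ± 1.40, and Ecm1 (extracellular matrix protein 1) 1.47 ± 0.69. The chemokines Ccl9 and Ccl6 had log2 ratios of 1.69 ± 0.60 and 1.53 ± 0.36. Ccl6 was at 2654, 2999 and 5622 CPM in αPD-1 members and 5782, 3804 and 2951 CPM in αPD-1 + corin members, against 1115, 837 and 1465 CPM and 2534, 1684 and 845 CPM in other macrophages. In resident-like macrophages Ccl6 was at 2990, 3226 and 3248 CPM with αPD-1 alone and 7636, 5788 and 4660 CPM with αPD-1 + corin. Ccl9 was there at 956, 786 and 922 CPM and at 1341, 1357 and 894 CPM. Ccl6, Ccl9 and Ecm1 were above other macrophages there in every sample, so they are not particular to members. Fn1 and Thbs1 were lower there than in members in every sample.

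Mrc1 had a log2 ratio of 1.36 ± 0.58. Other higher genes were Cacna1d (a calcium channel subunit, 1.42 ± 1.20), Rhoc (a small GTPase, 1.28 ± 0.69), Sdc4 (syndecan 4, a heparan sulfate proteoglycan, 1.19 ± 0.47) and Anxa3 (annexin A3, 1.19 ± 0.32). Mrc1, Cacna1d, Rhoc and Anxa3 were also higher in resident-like than in other macrophages in every sample, while Sdc4 was not. The lowest ratios included genes of the interferon response and a T cell–attracting chemokine. Ccl5 was at 34.7, 0 and 15.5 CPM and at 62.0, 12.7 and 0 CPM in members, against 108, 117 and 174 CPM and 72.1, 115 and 436 CPM in other macrophages, with a log2 ratio of -2.67 ± 1.83. The interferon-stimulated genes Rsad2 and Ifit2 had log2 ratios of -2.19 ± 1.86 and -2.04 ± 1.17. Cadm1 (a cell adhesion molecule, -2.31 ± 1.29), Cd72 (a C-type lectin, -2.16 ± 1.36), Camk1d (a calcium-dependent kinase, -1.71 ± 0.96), Def8 (-1.63 ± 2.18) and Phlpp1 (a phosphatase, -1.61 ± 1.61) completed the list. αPD-1 + corin replicate 3, with 4 members and 16944 UMIs, gave the most extreme ratio for many of these genes, such as -5.92 for Def8, where the other 5 samples lay between -1.81 and -0.21. Ccl5, Rsad2, Cd72, Ifit2, Def8 and Phlpp1 were at 0 CPM in its members. Such a 0 counted as lower, although at this depth it bounds the level only loosely.

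**Figure D3:**
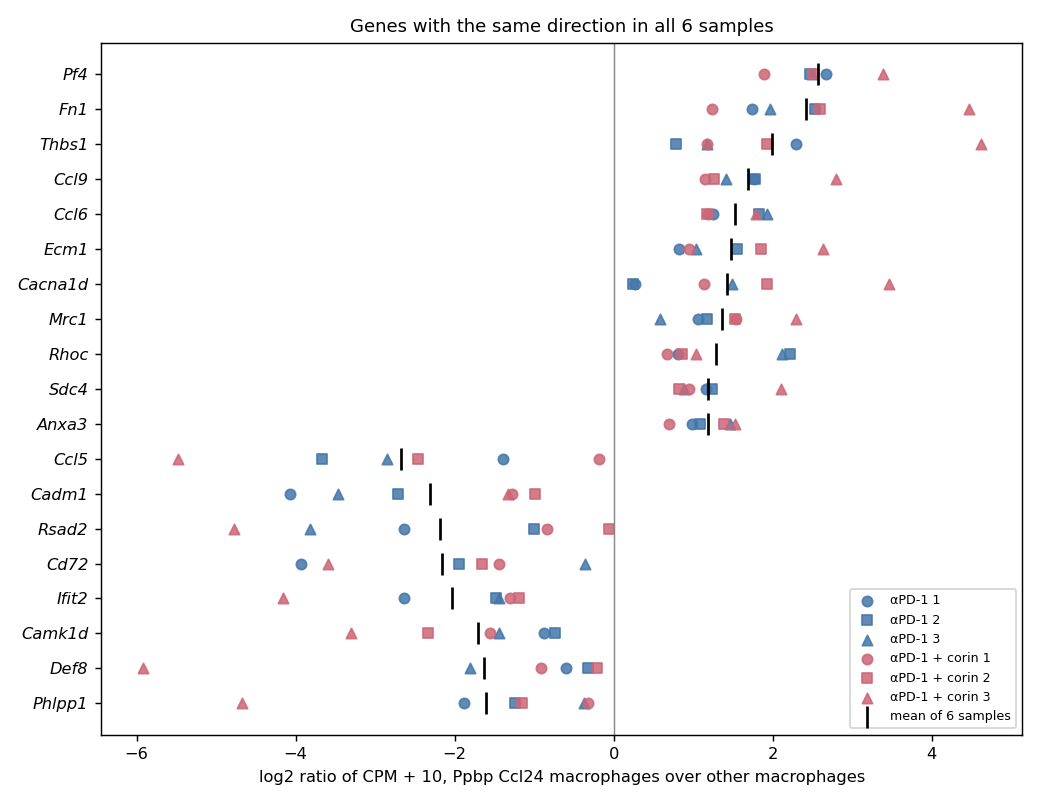
log2 ratio of CPM + 10 in members over other macrophages of the same sample, for genes named by size of ratio among those with the same direction in all 6 samples. Points are samples and black ticks their means, from 2.57 for Pf4 to -2.67 for Ccl5. αPD-1 + corin replicate 3 (red triangles) is often the farthest from 0.

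In αPD-1 + corin replicates 1 and 2, which held most members, the same comparison was made over whole gene lists. Of 3207 genes with at least 50 CPM, 31.9% were higher in members in both samples and 38.2% lower in both, and 34 and 17 genes passed 2-fold. Of 16 chemokine ligands at this level, 9 were higher in both, 5 of them more than 2-fold (Ccl6, Ccl8, Ccl9, Cxcl3 and Pf4), and 6 were lower in both. Ccl8, a monocyte-attracting chemokine, was 4.81-fold and 2.34-fold higher. Of 13 alternative activation genes, 7 were higher in both, 5 of them more than 2-fold, and 4 were lower in both, 1 of them more than 2-fold. Mrc1 and the next 3 were among the 5. The secreted protein gene Retnla was 15.2-fold and 4.52-fold, the scavenger receptor Cd163 8.29-fold and 7.76-fold, and the interleukin-4 receptor chain Il4ra 2.39-fold and 2.11-fold higher. Of 18 genes of coagulation, wound repair and matrix, 11 were higher in both and 5 lower, 1 of these more than 2-fold. Higher ones included F13a1 (coagulation factor XIII A chain, 2.32-fold and 3.45-fold), F7 (coagulation factor VII, 2.25-fold and 2.97-fold), Fn1 and Thbs1. In the αPD-1 samples F13a1 was at 364, 452 and 341 CPM in members against 577, 298 and 512 CPM in other macrophages. Of 30 hypoxia and glycolysis genes 19 were higher in both and 2 lower, none by more than 2-fold, and of 21 complement and phagocytosis genes 14 were higher and 4 lower. In contrast, 8 of 10 MHC class II genes were lower in both samples, with median log2 ratios of -0.56 and -0.77, as were 20 of 36 interferon-stimulated genes and 8 of 9 cell cycle genes. The αPD-1 samples did not share this order for class II. Cd74 was at 4962, 9573 and 8487 CPM in their members against 3489, 4227 and 4354 CPM in other macrophages. H2-DMb1 was at 364, 411 and 356 CPM against 123, 202 and 192 CPM. H2-Aa, H2-Ab1 and H2-Eb1 were higher in members of αPD-1 replicates 2 and 3 and lower in those of replicate 1. These αPD-1 levels rest on few cells, with 167 of 286 Cd74 UMIs of members in 1 cell of αPD-1 replicate 1. Genes of chemokine and growth factor receptors were split, with 11 of 24 higher and 11 lower. MHC class I genes (6 higher and 8 lower of 19), classical activation genes (8 and 7 of 19), iron and heme genes (4 and 3 of 12), arginine and polyamine genes (3 and 2 of 7), checkpoint and suppressive genes (5 and 4 of 14) and CoREST complex genes (2 and 1 of 5) were near the background of all genes or split. Lipid-associated genes (12 and 6 of 20) and proteases and their inhibitors (13 and 6 of 22) were more often higher.

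Members were then compared between treatments, to ask how these macrophages differed after corin was added to αPD-1. UMIs were summed per sample and fitted with edgeR's quasi-likelihood test, which tested 1237 genes with the rule's genes left out. At an adjusted p under 0.05, 14 genes (1.13%) were called, 9 higher and 5 lower in αPD-1 + corin members, and 186 had an unadjusted p under 0.05. In 225 genes (18.2%) every αPD-1 + corin sample lay on the same side of every αPD-1 sample. The αPD-1 values rest on 37 cells and those of αPD-1 + corin replicate 3 on 4 cells.

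The genes that rose included a mannose receptor, a coagulation factor and an interferon-induced gene. Ifitm1, an interferon-induced transmembrane protein, was at 69.4, 20.5 and 15.5 CPM in αPD-1 members and 379, 369 and 354 CPM in αPD-1 + corin members, a log2 fold change (± SE) of 3.54 ± 0.43 (edgeR adjusted p = 0.00587). It kept its call in all 16 alternatives that tested it. Its UMIs were in 5 of the 37 αPD-1 members and in 131 of 409, 81 of 161 and 1 of 4 αPD-1 + corin members. In other macrophages Ifitm1 had the same order without overlap, at 64.2, 55.1 and 64.9 CPM and at 414, 422 and 89.8 CPM. Its interaction with class, tested below, was not called (edgeR adjusted p = 0.667), so the rise is not particular to members. F13a1 was at 364, 452 and 341 CPM and at 1687, 1427 and 1653 CPM, a log2 fold change of 2.03 ± 0.23 (edgeR adjusted p = 0.00587). The F13a1 UMIs were in 22 of the 37 αPD-1 members and 500 of the 574 αPD-1 + corin members. Mrc1, with the levels given above, rose by a log2 fold change of 1.64 ± 0.30 (edgeR adjusted p = 0.0391). Ms4a4a, a membrane protein of macrophages, was at 86.7, 113 and 77.4 CPM and at 436, 481 and 295 CPM (log2 fold change 2.22 ± 0.34, edgeR adjusted p = 0.0146).

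Ly6c2, a surface antigen of inflammatory monocytes, was at 121, 61.6 and 61.9 CPM and at 268, 480 and 236 CPM, a log2 fold change of 2.22 ± 0.44 (edgeR adjusted p = 0.0484). In other macrophages it stayed between 238 and 337 CPM in all 6 samples. The summed monocyte markers given above were also higher in members of each αPD-1 + corin sample, and their part in the Ly6c2 result was not tested. Fbxl5, an iron-sensing ubiquitin ligase subunit, was at 208, 103 and 263 CPM and at 609, 889 and 885 CPM (log2 fold change 2.11 ± 0.34, edgeR adjusted p = 0.0167). Grina, a membrane protein of the Golgi and endoplasmic reticulum, was at 139, 113 and 92.9 CPM and at 312, 491 and 590 CPM (1.93 ± 0.36, edgeR adjusted p = 0.0404). Ecm1 was at 121, 185 and 170 CPM and at 449, 433 and 531 CPM (1.51 ± 0.29, edgeR adjusted p = 0.0404). The ninth, Gm34084, is a predicted gene.

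The genes that fell were heat shock genes, a chemokine and an adhesion gene. Hspa1a, which encodes the stress-induced chaperone Hsp70, was at 1544, 668 and 1022 CPM in αPD-1 members and 163, 145 and 295 CPM in αPD-1 + corin members, a log2 fold change of -2.65 ± 0.33 (edgeR adjusted p = 0.00587). Its near-identical copy Hspa1b, which can share reads with it, was at 763, 544 and 867 CPM and at 77.2, 58.8 and 354 CPM (-3.10 ± 0.45, edgeR adjusted p = 0.0125). Hsph1, a partner of Hsp70, was at 226, 195 and 124 CPM and at 25.2, 48.4 and 118 CPM (-2.26 ± 0.44, edgeR adjusted p = 0.0475). Its UMIs were in 9 of the 37 αPD-1 members and 46 of the 574 αPD-1 + corin members. In αPD-1 replicates 1 to 3, 9 of 13, 12 of 19 and 6 of 8 Hsph1 UMIs were in 1 cell each. The other macrophages had the same order, with 1328, 1033 and 1231 CPM of Hspa1a against 232, 239 and 574 CPM. Tns3 (tensin 3, a focal adhesion protein) was at 312, 185 and 217 CPM and at 84.4, 68.0 and 177 CPM (-1.51 ± 0.30, edgeR adjusted p = 0.0484).

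Cxcl9, an interferon-γ–induced chemokine that attracts T cells, was at 260, 298 and 263 CPM in αPD-1 members and 7.93, 32.3 and 0 CPM in αPD-1 + corin members, a log2 fold change of -3.88 ± 0.52 (edgeR adjusted p = 0.00783). Few cells carried these UMIs. In the αPD-1 samples 13 of 15, 29 of 29 and 16 of 17 Cxcl9 UMIs were in 1 cell of each sample, and 5 of 37 members had any, against 13 of 574 in the other group. In other macrophages Cxcl9 was at 264, 414 and 147 CPM and at 17.0, 300 and 579 CPM, with overlap.

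**Figure D4:**
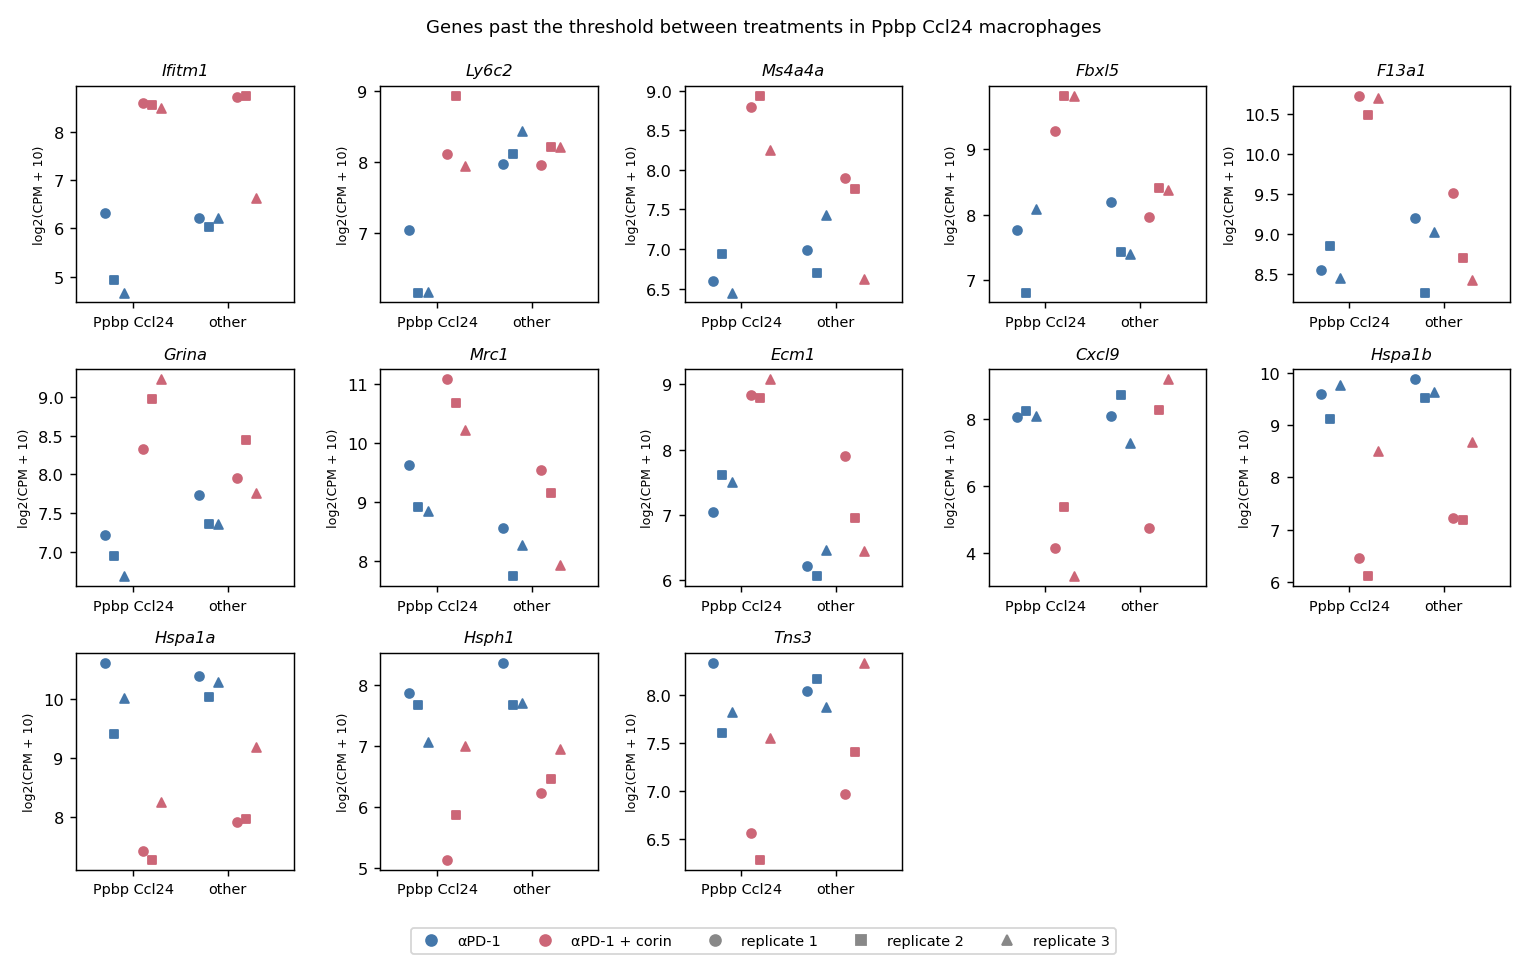
log2(CPM + 10) by sample in members (left of each panel) and other macrophages (right) for the 13 named genes past the threshold between treatments in members. Points are samples, blue αPD-1 and red αPD-1 + corin, with shapes for replicates. In members the groups do not overlap in any panel, and the heat shock genes Hspa1a, Hspa1b and Hsph1 are lower in αPD-1 + corin in both classes. Ifitm1 is higher in αPD-1 + corin in both classes.

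These calls were sensitive to which samples and cells entered the fit. Without αPD-1 + corin replicate 3 the fit called 40 genes, among them all 14, and without replicate 2 it called 4, all among the 14. Without αPD-1 replicate 1 it called 28, with 10 of the 14, and without αPD-1 replicate 2 it called 7, with 5 of the 14. Without αPD-1 replicate 3 it called 12, with 6 of the 14, and without αPD-1 + corin replicate 1 it called 10, with 7 of the 14. Ifitm1, F13a1 and Hspa1a were called with any of the 6 samples left out, and Cxcl9 with any but αPD-1 replicate 2. Hspa1b, Ms4a4a and Fbxl5 lost their call in 2 of the 6 such fits, and Grina, Mrc1, Ly6c2, Hsph1, Ecm1 and Tns3 in 3 to 5. With the limit on Lyve1, Folr2 and Fcna lifted 1 of the 14, Ifitm1, kept its call, and without the members that had S100a8 and S100a9 UMIs 12 of the 13 that were tested did.

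By gene list, called genes were few. Of 8 alternative activation genes tested, 1 rose (Mrc1) and the median log2 fold change was 0.23, against 0.00 over all genes. Ccl7 (1.47 ± 0.65, edgeR adjusted p = 0.327) and Pf4 (0.17 ± 0.39, edgeR adjusted p = 0.882) did not pass the threshold. Of 14 chemokine ligands tested 1 fell (Cxcl9) and none rose, with 12 positive fold changes and a median of 0.53. Of 20 hypoxia and glycolysis genes none was called, with 18 positive and a median of 0.46, and Pkm and Aldoa, the most abundant, had log2 fold changes of 0.09 ± 0.26 and 0.26 ± 0.22. Of 25 dissociation stress genes 3 fell (the heat shock genes) and none rose, and the median was -0.14. Of 12 coagulation, wound and matrix genes F13a1 rose, with a median of 0.34, and of 15 complement and phagocytosis genes Mrc1 rose, with a median of 0.53. Of 21 interferon-stimulated genes tested Cxcl9 fell and none rose (Ifitm1 was not on the list), and the median was 0.18.

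No other list had a called gene. In the 9 MHC class II genes tested, 2 fold changes were positive and the median was -0.87, with Cd74 (the invariant chain) at -0.87 ± 0.31 and H2-Aa at -1.09 ± 0.49 (edgeR adjusted p = 0.225 and 0.327). The 13 MHC class I genes had a median of -0.10, with B2m at -0.10 ± 0.23 and H2-D1 at 0.07 ± 0.23. The 13 classical activation genes had a median of 0.50, with Nfkbia at 0.14 ± 0.30 and Clec4d at 0.96 ± 0.34. The 11 receptors had a median of 0.46, with Ccr2 at 0.55 ± 0.40. The 4 arginine and polyamine genes had a median of 0.02, with Sat1 at 0.04 ± 0.30. The 6 iron and heme genes had a median of -0.23, with Fth1 at -0.03 ± 0.30 and Ftl1 at -0.63 ± 0.34. The 17 lipid-associated genes had a median of 0.12, with Spp1 at -0.12 ± 0.64 and Ctsb at 0.04 ± 0.45. The 16 proteases and inhibitors had a median of 0.08, with Ctss at 0.19 ± 0.27, and the 11 checkpoint and suppressive genes 0.35, with Lilrb4a at -0.19 ± 0.22 and Lilr4b at 0.35 ± 0.29. The 4 cell cycle genes had a median of -0.02, with Cdkn1a at 0.16 ± 0.30 and Tubb5 at -0.23 ± 0.42. No CoREST complex gene passed the filter on low counts in members.

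The same treatment fit over all gated macrophages gives the level of the marker genes without the split by Ppbp and Ccl24. It tested 11737 genes and called 4 (0.0341%), with 2079 at an unadjusted p under 0.05. Ppbp was at 7.86, 4.55 and 10.1 CPM with αPD-1 alone and 313, 729 and 3.36 CPM with αPD-1 + corin. Ccl24 was at 30.3, 45.5 and 30.9 CPM and at 350, 305 and 12.9 CPM. For both genes, which chose the members and are given as a description, αPD-1 + corin replicate 3 was below every αPD-1 sample and the other 2 were above. Ccl7, without overlap, had a log2 fold change of 1.24 ± 0.31 (edgeR adjusted p = 0.141), and Mrc1 and Pf4 had 1.30 ± 0.45 and 1.01 ± 0.63, with overlap. Without αPD-1 + corin replicate 3 Pf4, Mrc1 and Ccl7 passed the threshold, with adjusted p between 0.00217 and 0.00989, in a fit that called 942 genes higher and 847 lower. The 4 called genes, named after their values were seen since they were so few, were Fpr1, Cd38 and Ly6a, which rose, and Hes1, which fell.

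Whether the treatment difference in members differed from that in other macrophages was tested as an interaction between treatment and class, with each sample as a block. Resident-like macrophages were not in this test, so a call does not show a difference particular to members. Of 10226 genes 50 (0.489%) were called by edgeR, 24 more positive and 26 more negative in members. The median over all genes was 0.26 on the log2 scale, so differences are read against that shift. DESeq2 called 9 genes, 3 and 6. With every cell thinned to 1500 UMIs, edgeR called 2 more positive and 3 more negative, among them F13a1, Lpl, Timp1 and Cxcl9. Of the genes that differed between treatments in members, Ly6c2 (2.27, edgeR adjusted p = 0.000449), F13a1 (1.82, 0.000709), Fbxl5 (1.50, 0.0313) and Cxcl9 (-2.67, 5.38e-06) had called interactions, and the other 9 named ones did not. Without αPD-1 + corin replicate 2 the fit called 2 genes more positive and 7 more negative, and without αPD-1 replicate 1 it called 6 and 20. Without αPD-1 + corin replicate 3 it called 10 and 7, and without αPD-1 replicate 2, αPD-1 replicate 3 or αPD-1 + corin replicate 1 the counts were 12 and 13, 15 and 16, and 19 and 16. The interactions of Ly6c2 and Cxcl9 lost their call without αPD-1 + corin replicate 2 and with no other sample left out, that of F13a1 without 3 of the samples and that of Fbxl5 without 4.

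Among the lists, MHC class II genes held the most interaction calls, with 6 of 13 tested, all more negative in members. H2-Aa was at 919.5, 4448 and 2571 CPM in αPD-1 members and 1221, 1486 and 944 CPM in αPD-1 + corin members, with overlap through αPD-1 replicate 1. In other macrophages it was lower with αPD-1 alone than with αPD-1 + corin, and the interaction was -1.57 ± 0.38 (edgeR adjusted p = 0.0113). H2-Ab1 and H2-Eb1, class II β chains, had interactions of -1.64 ± 0.38 and -1.55 ± 0.38 (edgeR adjusted p = 0.00607 and 0.0143). Cd74 was at 4962, 9573 and 8487 CPM and at 3628, 4804 and 4072 CPM in members, without overlap (-1.49 ± 0.37, edgeR adjusted p = 0.0165). In αPD-1 replicates 1 to 3, 167 of 286, 269 of 932 and 195 of 548 Cd74 UMIs of members were in 1 cell each. For H2-Aa these were 40 of 53, 129 of 433 and 94 of 166, and for H2-DMb1 14 of 21, 9 of 40 and 12 of 23. The αPD-1 levels of these genes, and the lack of overlap for Cd74, thus rest on few cells. H2-DMb1, which loads peptide onto class II, was at 364, 411 and 356 CPM and at 82.9, 118 and 354 CPM (-1.76 ± 0.36, edgeR adjusted p = 0.000586), and Ciita, the master activator of class II genes, had -1.66 ± 0.45 (edgeR adjusted p = 0.0484). DESeq2 called 2 of these 6, Cd74 and H2-DMb1, and with cells thinned to 1500 UMIs edgeR called 0 of the 6, each still more negative in members. Without αPD-1 replicate 2, whose members had the highest class II levels, edgeR called H2-DMb1 alone of the 6, as it did without αPD-1 + corin replicate 3, and without αPD-1 + corin replicate 2 it called none. Without αPD-1 replicate 3 it called H2-DMb1 and Ciita, without αPD-1 replicate 1 all but Ciita, and without αPD-1 + corin replicate 1 all but H2-DMb1 and Ciita.

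**Figure D5:**
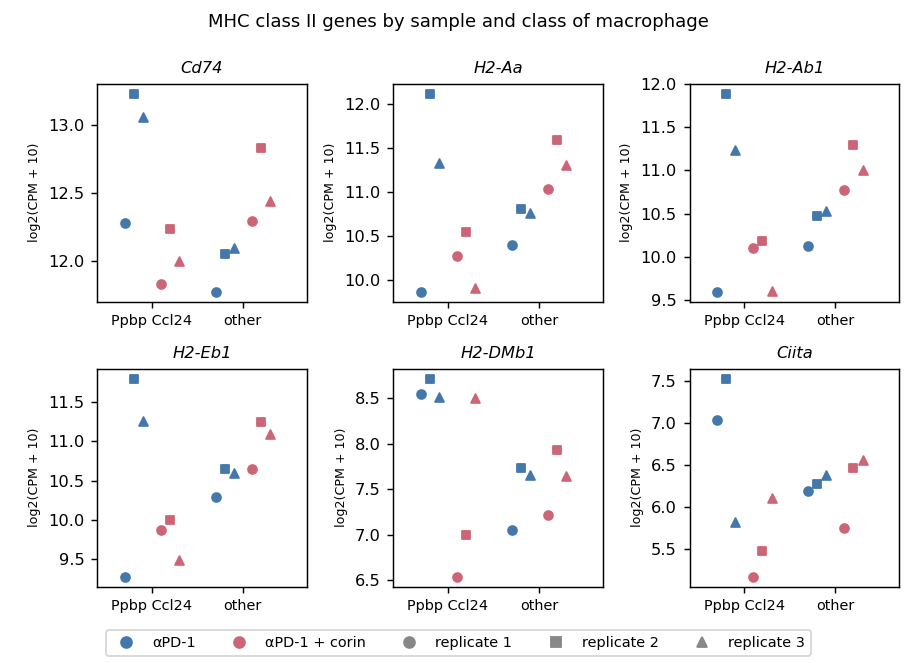
log2(CPM + 10) by sample in members and other macrophages for the 6 MHC class II genes with a called interaction between treatment and class. Points are samples, with color for treatment and shape for replicate. Cd74 does not overlap between treatments in members, while H2-Aa, H2-Ab1 and H2-Eb1 overlap through αPD-1 replicate 1. In that sample 167 of 286 Cd74 UMIs of members were in 1 cell.

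Other interaction calls in the lists concerned lipid, matrix and activation genes. Lpl (lipoprotein lipase) was more negative in members (-2.51 ± 0.35, edgeR adjusted p = 2.47e-09), and its UMIs were in 19 of 37 αPD-1 members and 90 of 574 αPD-1 + corin members. Its level in members was 763, 924 and 558 CPM with αPD-1 alone and 127, 84.1 and 649 CPM with αPD-1 + corin, with overlap through replicate 3, where 2 of the 4 members had it. Chil3, a chitinase-like protein, was more positive (1.84 ± 0.38, edgeR adjusted p = 0.000842), as was Apoc2, an apolipoprotein (2.75 ± 0.57, 0.000927). In members Chil3 was at 260, 236 and 170 CPM with αPD-1 alone and 285, 152 and 885 CPM with αPD-1 + corin, with overlap. Other macrophages had it at 493, 311 and 800 CPM and, lower in each sample, at 243, 105 and 190 CPM. Timp1, a protease inhibitor, and Igf1, a growth factor, were more negative (-2.86 and -2.74). Slpi, also a protease inhibitor, and Ifi204, an interferon-induced DNA sensor, were more positive (3.14 and 1.63). In members Timp1 was at 156, 20.5 and 232 CPM with αPD-1 alone and 131, 94.5 and 0 CPM with αPD-1 + corin, with overlap. Other macrophages had Timp1 at 13.2, 6.34 and 18.6 CPM and at 166, 42.8 and 12.4 CPM. In αPD-1 replicates 1 and 3, 8 of 9 and 10 of 15 Timp1 UMIs of members were in 1 cell each. Igf1 UMIs were in 5 of 37 αPD-1 members and 19 of 574 αPD-1 + corin members, with 0 UMIs in αPD-1 replicate 3. Itgax, the integrin CD11c, was more negative (-2.24). Cd163 was more positive (4.75 ± 0.93, edgeR adjusted p = 0.000363), with 1 UMI in αPD-1 members and 356, 122 and 0 UMIs in αPD-1 + corin members. Cd38, an ectoenzyme, was more positive too (4.03 ± 0.97), with 1 UMI in αPD-1 members and 336 in αPD-1 + corin members. With samples left out one at a time, Lpl and Cd163 lost their call without αPD-1 + corin replicate 2 alone and Timp1 without αPD-1 + corin replicate 1 alone. Apoc2 lost it in 2 of the 6 fits, Chil3, Igf1 and Slpi in 3, Itgax in 4, Cd38 in 5, and Ifi204 in all 6. Chil3, Igf1, Slpi, Itgax, Cd38 and Ifi204 were among those not called without αPD-1 + corin replicate 3.

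Several of the largest interactions came from genes at 0, or in very few cells, in a group. Junos, Lyz1 and Tex2 had no UMI in the αPD-1 members, which were 37 cells, and were found in 179, 36 and 63 of the 574 αPD-1 + corin members. Lyz1 and Tex2 were also at 0 in αPD-1 + corin replicate 3, and 95 of the 166 Lyz1 UMIs of replicate 2 were in 1 cell. Fabp4, a fatty acid–binding protein, was the most negative, yet its 22 UMIs in αPD-1 members were all in 1 cell of replicate 2, and without that sample its log2 interaction was 7.33. It also lost its call without αPD-1 + corin replicate 3. Of the 12 UMIs of Slc40a1, the iron exporter ferroportin, in αPD-1 members, 11 were in 1 cell of αPD-1 replicate 1. Mgl2, a galactose-type lectin of alternatively activated macrophages, was in 5 of 37 and 15 of 574 members, Mir99ahg in 4 and 7, and Plxdc2 in 6 and 14. Of these genes Junos was called with any of the 6 samples left out, Mgl2 and Plxdc2 with any but αPD-1 replicate 3, Slc40a1 and Mir99ahg in 3 of the 6 fits, Lyz1 in 2 and Tex2 in none. Without αPD-1 + corin replicate 3, Slc40a1, Mir99ahg, Lyz1 and Tex2 were not called.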

How the data were processed

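Single-cell libraries of CD45+ cells from 3 αPD-1 and 3 αPD-1 + corin samples were used. The authors aligned reads to GRCm39 with Cell Ranger (8.0 in the submitters' processing notes, 8.0.1 in the matrix headers) and deposited raw UMI counts of 32285 genes for cell-called barcodes. The deposited counts were not normalized, and the lowest barcode total was 500 UMIs. The submitters' notes also list Seurat 5.0.11. Depth ran from 52281422 to 84276739 UMIs per sample, with median totals of 2400 to 3114 UMIs per barcode. Groups and replicate numbers follow the sample titles. Limits on genes and mitochondrial UMIs were those of the study.

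The members, gene lists, tests and named genes' rule were chosen with earlier results of these data known. No clustering was done. Shares were tested over samples with a two-sided exact permutation test. For gene tests, UMIs of all cells of a class were added up in each sample and fitted with edgeR 4.0.16 (quasi-likelihood test, TMM, filterByExpr, Benjamini-Hochberg adjustment over all genes tested, threshold 0.05), with DESeq2 1.42.0 as an alternative, in R 4.3.3. Ratios to other macrophages used CPM + 10. Named genes were the marker genes, up to 10 called genes each way in members (at least 50 CPM in the higher group, no overlap, gene models left out), up to 2 called genes each way or the 2 most abundant genes of each of 18 lists, up to 5 interactions each way, and 12 higher and 8 lower ratios at 100 CPM. All interaction calls within the lists were also named, a choice made after the values were seen. Some genes that these rules name are not reported here. Of the list genes, 4 were not in the gene tables. Of 32285 identifiers, 31674 matched GENCODE vM39.

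No doublets were removed in the main analysis. The study used DoubletFinder. Here the threshold chosen by Scrublet (scanpy 1.11.5, Python 3.11.15) marked 0 of 52899 barcodes and so did not work, and the top 0.4% per 1000 barcodes by score (2002 barcodes) were left out as an alternative. The fits were tested on simulated counts. Other alternatives were no filter on low counts, RLE size factors, each sample left out, a replicate block, thinning to 1500 UMIs per cell, other limits on genes, mitochondrial UMIs (5%) and Ppbp and Ccl24 (1 or 3 UMIs), equal numbers of members (4 per sample), and fits without members that had S100a8 and S100a9 UMIs. Lifting the limit on Lyve1, Folr2 and Fcna in the fit, and leaving out samples from the ratios, were added after the data were seen.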

Additional observations from a re-analysis of the deposited data

Results flagged for a closer look

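The difference between treatments was itself different in members and in other macrophages, by the edgeR interaction test (values are log2 interactions, with an adjusted p under 0.05), in the genes that follow. The 5 most positive were Junos (10.59), Lyz1 (9.88), Tex2 (9.54), Cd163 (4.75) and Cd38 (4.03). The 5 most negative were Fabp4 (-4.01), Slc40a1 (-3.96), Mgl2 (-3.72), Mir99ahg (-3.49) and Plxdc2 (-3.40). Junos, Lyz1 and Tex2 had no UMI in αPD-1 members, so their fitted values are no bound. MHC class II genes were Ciita (-1.66), Cd74 (-1.49), H2-Aa (-1.57), H2-Eb1 (-1.55), H2-Ab1 (-1.64) and H2-DMb1 (-1.76). Genes that also differed between treatments within members were Ly6c2 (2.27), F13a1 (1.82), Fbxl5 (1.50) and Cxcl9 (-2.67). The other genes of the lists were Timp1 (-2.86), Apoc2 (2.75), Lpl (-2.51), Slpi (3.14), Igf1 (-2.74), Itgax (-2.24), Chil3 (1.84) and Ifi204 (1.63).

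Outside the upper limit on genes, 40 barcodes of the αPD-1 + corin samples met the rest of the rule, against 2 of the αPD-1 samples.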

How the results depend on the processing

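The results rest on few cells: 37 members with αPD-1 alone and 4 in αPD-1 + corin replicate 3, so levels there are coarse and genes under the filter could not be tested. Calls in members (9 higher and 5 lower in the report) became 14 and 3 with DESeq2, 98 and 37 with no filter on low counts, 16 and 7 with the top Scrublet scores removed, 5 and 6 with no upper limit on genes, 1 and 0 with 4 members per sample, 17 and 10 with members with S100a8 and S100a9 UMIs left out, 5 and 0 with no limit on Lyve1, Folr2 and Fcna, 8 and 3 with a replicate block, 6 and 3 with thinning to 1500 UMIs and 6 and 2 with at least 3 UMIs of Ppbp and Ccl24. Calls in gated macrophages (3 and 1) became 177 and 84 with DESeq2, 444 and 138 with no filter on low counts, 18 and 5 with a replicate block, 1 and 0 with no upper limit on genes, 5 and 5 with a mitochondrial limit of 5% and 4 and 3 with thinning to 1500 UMIs. Calls for the interaction (24 and 26) became 3 and 6 with DESeq2, 15 and 23 with no filter on low counts and 2 and 3 with thinning to 1500 UMIs. With each sample left out in turn, calls ranged over 2 to 25 higher and 2 to 15 lower in members, 0 to 942 and 0 to 847 in gated macrophages, and 2 to 19 and 7 to 20 for the interaction. Genes with the same direction from other macrophages in all samples left numbered 98 to 133 (higher) and 139 to 171 (lower). The difference in member share ranged from 2.97 to 8.23 percentage points of gated macrophages and from 1.68 to 4.10 of kept barcodes. Same-numbered samples did not deviate together (correlations between -0.01845 and 0.06105 in members). In gated macrophages same-numbered samples had correlations between -0.0743 and -0.06133, and differently numbered ones between 0.009905 and 0.05915. With so few members and samples these values cannot decide whether the numbers pair samples. With the number as a replicate block the edgeR log2 ratio of cell counts was 1.39 of gated macrophages (adjusted p = 0.383) and 2.48 of kept barcodes (adjusted p = 0.311), and 8 of the 14 genes called in members kept their call. Some log2 changes named for abundance, none past the threshold but that of Fabp4, changed sign under an alternative. Their ranges with each sample left out, and then their values of the other sign elsewhere, were Nfkbia (-0.0363 to 0.43, and -0.20, -0.17, -0.0492, -0.0250), B2m (-0.21 to 0.0391, and 0.0439), H2-D1 (-0.0548 to 0.22, and -0.64, -0.10), Pkm (-0.0886 to 0.25, and -0.32), Sat1 (-0.19 to 0.37, and -0.42, -0.28, -0.10, -0.0834), Fth1 (-0.22 to 0.14, and 0.0360, 0.0572, 0.11, 0.62), Spp1 (-0.61 to 0.79, and 0.0120, 0.0467, 0.0472, 0.25, 2.88), Ctsb (-0.45 to 0.41, and -0.21, -0.14, -0.0384, -0.00926, -0.00806), Ctss (-0.0581 to 0.43, and -0.0398, -0.0364, -0.0284), Lilrb4a (0.49), Cdkn1a (-0.0289 to 0.37), Tubb5 (-0.53 to 0.00846, and 0.0974, 0.25), Pf4 (-0.18 to 0.55, and -0.11, -0.0675) and Fabp4 (interaction, -5.24 to 7.33). Fabp4 turned without αPD-1 replicate 2. The cause of these changes was not tested.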
